A study of Mus musculus with 12 samples.

Results

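The genes described here are 10 components and known targets of the canonical Wnt pathway in mouse kidney collecting duct cells, chosen by name: the feedback regulators Rnf43, Znrf3 and Axin2, the R-spondin receptor gene Lgr4, the 4 genes of the TCF/LEF transcription factors (Tcf7, Lef1, Tcf7l1 and Tcf7l2), and the growth genes Ccnd1 and Myc. Of these 10, 9 had a row in the table of 25208 genes, and Axin2 was not analysed here. The 10 were chosen with earlier results of these data known. RNA was sequenced from mpkCCDc11 cells, a wild-type line from the mouse cortical collecting duct. Cells carrying an siRNA that targets Ctnnb1, which encodes beta-catenin, received 1 nM dDAVP or vehicle for 24 h, and so did cells carrying a control siRNA. dDAVP is a vasopressin analogue that acts on the V2 receptor, and it was given on the basolateral side. All 4 groups had been grown on permeable supports for 4 days and kept without serum and hormones for 24 h. The groups, each of 3 libraries, were Ctnnb1 siRNA with dDAVP, Ctnnb1 siRNA with vehicle, control siRNA with dDAVP and control siRNA with vehicle. All libraries came from this 1 line, and whether replicates were separate cultures is not stated in the labels, so p-values measure the spread between these libraries, which may be technical.

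In the canonical Wnt pathway, Wnt ligands bind Frizzled receptors with Lrp co-receptors, which stops a destruction complex built on Axin from degrading beta-catenin. Beta-catenin then enters the nucleus and binds TCF/LEF proteins, which hold the DNA and turn from repressors to activators. Many targets act back on the pathway: Rnf43 and Znrf3 are membrane ubiquitin ligases that remove Frizzled from the cell surface, and Lgr4 with its R-spondin ligands removes those ligases. In the kidney the pathway is known for its part in the growth and branching of the ureteric bud, from which the collecting duct forms.

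The libraries held 32997720 to 48935473 counted reads. All 11 collecting duct epithelial markers reached a mean of 1 TPM (a level scaled for transcript length and library size), with sums between 4403 and 4876 TPM over the 12 libraries, and so did 7 of 9 principal cell markers. No listed marker of intercalated cells, thick ascending limb, distal convoluted tubule, fibroblasts or endothelium did, and of those of proximal tubule and leukocytes only Lrp2 (10.4 TPM) and Cd68 (5.27 TPM) did. These means pool the 4 groups. With vehicle, Aqp2 averaged 0.02 TPM with control siRNA and 0.077 TPM with Ctnnb1 siRNA, and with dDAVP 8.63 and 4.94 TPM. Aqp3 also lay under 1 TPM in both vehicle groups (0.613 and 0.85 TPM), and Fxyd4 in control siRNA with vehicle (0.557 TPM). Avpr2, Scnn1a, Scnn1g and Hsd11b2 averaged over 1 TPM in every group. Ctnnb1 itself (gene ID 12387, GRCm38 chromosome 9, 120933400 to 120960507) had 326 to 342 CPM (read counts scaled to library size with TMM factors) with Ctnnb1 siRNA and dDAVP and 306 to 334 CPM with Ctnnb1 siRNA and vehicle, against 776 to 811 and 745 to 766 CPM with control siRNA. The knockdown therefore left mRNA of the target in every library. Replicate 3 of the Ctnnb1-siRNA dDAVP group stood apart: its counts differed from those of its group mates with a chi-square per degree of freedom of 39.4 and 63.8, against 5.11 to 23.5 for the other replicate pairs. For Rnf43, Znrf3, Lgr4, Ccnd1 and Myc some results that rest on this group are also given without that library. The other results include it, and the alternative analyses counted below leave out each library in turn. Small structural RNAs took 1.098% to 1.455% of reads with Ctnnb1 siRNA and dDAVP and 1.02% to 1.097% with Ctnnb1 siRNA and vehicle, against 0.903% to 1.22% and 0.681% to 1.03% with control siRNA, and their part in the results was not tested.

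The members spanned more than 3 orders of magnitude in level. Lgr4 was the most abundant, with a mean of 100.6 TPM over the 12 libraries (79.7 to 116). It was followed by Ccnd1 at 33.2 TPM (22.2 to 40.3), Myc at 27.6 TPM (23.1 to 38.4), Tcf7l2 at 17.1 TPM (10.2 to 24.4), Znrf3 at 5.49 TPM (3.77 to 6.89) and Tcf7l1 at 3.27 TPM (2.55 to 5.44). The 3 lowest members lay under 1 TPM on average: Rnf43 at 0.62 TPM (0.18 to 1.16), Tcf7 at 0.154 TPM (0.05 to 0.28) and Lef1 at 0.051 TPM (0 to 0.15). Each gene exceeded the next in every library, except that Ccnd1 exceeded Myc in 9 of 12 libraries and Tcf7 exceeded Lef1 in 11 of 12, so the order within these 2 pairs is not fixed beyond their spread.

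**Figure D1:**
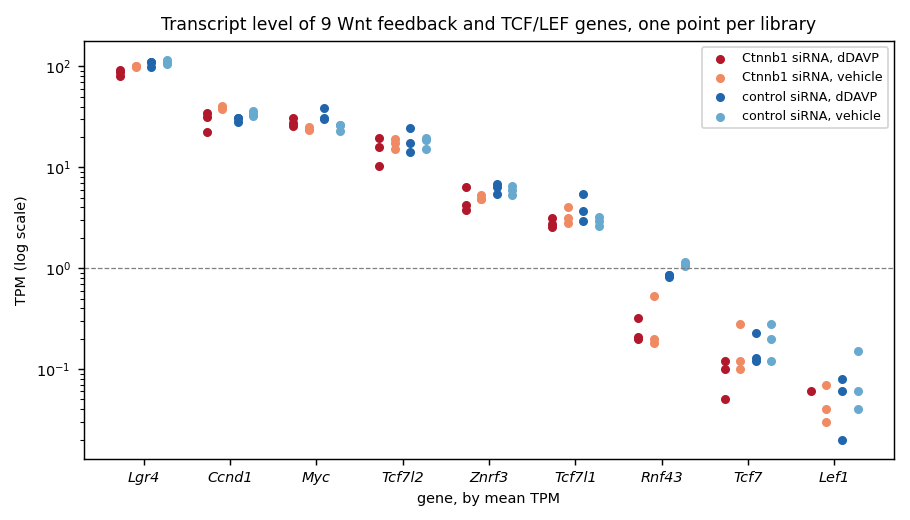
Transcript level of the 9 measured members in TPM on a log scale, with 1 point per library and genes ordered by mean level. Lgr4 lies between 79.7 and 116 TPM, Rnf43, Tcf7 and Lef1 lie near or under the dashed line at 1 TPM, and the 2 Lef1 values of 0 (Ctnnb1 siRNA with dDAVP) cannot be drawn on this axis.

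Lef1 (gene ID 16842, chromosome 3, 131110297 to 131224357) was too low to measure in these cells. It had 0, 0 and 6 reads with Ctnnb1 siRNA and dDAVP, and 3, 4 and 6 with Ctnnb1 siRNA and vehicle. With control siRNA it had 5, 7 and 3 reads with dDAVP and 4, 9 and 5 with vehicle. It did not pass the filter on low counts and was not tested, and a count of 0 in the 2 empty libraries allows up to 0.0656 and 0.0686 CPM (3 counts per library, counting error only). Tcf7 passed the filter on 13 to 60 reads per library, with 1 of its neighbours much higher: its span shares 332 bases with Skp1, on the opposite strand, which averaged 15136 reads. The kit was strand-specific but whether the counting used strand is not stated, so reads of Tcf7 and of that neighbour may not have been told apart.

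Among the 4 TCF/LEF genes, Tcf7l2 was the main transcript and Tcf7l1 made up most of the rest. It held 83.1% of their summed TPM on average (79.7% to 85.5% over the 12 libraries), Tcf7l1 15.9% (13.5% to 19.9%), Tcf7 0.736% and Lef1 0.24%. Tcf7l2 and Tcf7l1 are the members of the family expressed in many epithelia, where Tcf7l1 is known mainly as a repressor, while Tcf7 and Lef1 are best known from T lymphocytes. The Tcf7l2 share was 83.3% ± 3.18 with Ctnnb1 siRNA and dDAVP and 83.0% ± 1.43 with Ctnnb1 siRNA and vehicle, against 81.5% ± 0.432 and 84.7% ± 0.585 with control siRNA (SD, n = 3 each). With control siRNA the dDAVP libraries (80.98% to 81.7%) lay below the vehicle libraries (83.99% to 85.03%) without overlap, while with Ctnnb1 siRNA the treatments overlapped. These shares were not tested.

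**Figure D2:**
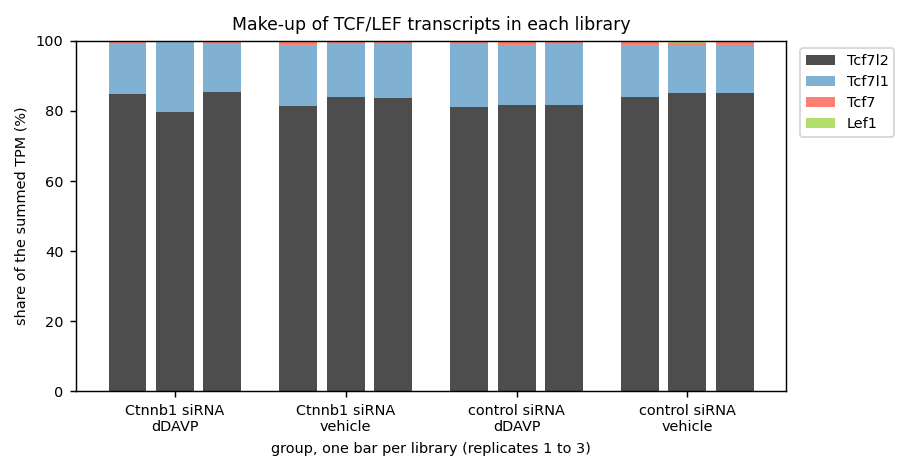
Share of each TCF/LEF gene in the summed TPM of the 4 genes, with 1 stacked bar per library. Tcf7l2 takes 79.7% to 85.5% and Tcf7l1 most of the rest in every library, and Tcf7 and Lef1 are thin bands at the top.

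The first comparison asked which members depended on Ctnnb1. Rnf43 fell more than 3-fold in both treatments, the one member called in each. Rnf43 (gene ID 207742, chromosome 11, 87663087 to 87735539) had 0.744, 0.526 and 0.442 CPM with Ctnnb1 siRNA and dDAVP, against 1.78, 1.87 and 1.83 CPM with control siRNA and dDAVP. With vehicle it had 1.15, 0.473 and 0.42 CPM with Ctnnb1 siRNA, against 2.55, 2.18 and 2.24 CPM with control siRNA. Every Ctnnb1-siRNA library was thus below every control-siRNA library. These values rest on 18 to 47 reads per library with Ctnnb1 siRNA and 70 to 125 with control siRNA, and Ctnnb1-siRNA vehicle replicate 1, with 47 reads, was the highest of its group. The span of Rnf43 shares 5804 bases with the non-coding gene 1110028F11Rik on the same strand, which averaged 5.75 reads per library. RNA was taken from whole cultures, so fewer cells with a transcript and less transcript per cell cannot be told apart.

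The fall of Rnf43 was 3.20-fold with dDAVP (log2 -1.68, SE 0.31, edgeR adjusted p = 0.0296) and 3.43-fold with vehicle (log2 -1.78, SE 0.30, edgeR adjusted p = 0.0136), lower in 3 of 3 libraries each time. The average of both was 3.31-fold (log2 -1.73, 95% interval -2.18 to -1.27, edgeR adjusted p = 0.000482). By the size of this average change Rnf43 ranked 48 of 16508 tested genes. Rnf43 fell further than the siRNA target itself in the fitted values, since Ctnnb1 changed by log2 -1.24 with dDAVP and -1.26 with vehicle. The difference between the 2 genes was not tested. The difference between the 2 treatments in the change of Rnf43 was a log2 of 0.10 (95% interval -0.83 to 1.03, edgeR adjusted p = 0.99) and was not called, but the interval is wide.

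The call of Rnf43 in the average was kept in each of 19 alternative analyses, with a log2 change between -2.02 and -0.63. The smallest change was from the log2 of TPM plus 1, a scale that shrinks changes of genes under 1 TPM. The call with dDAVP alone was kept in 10 of 20 alternatives and that with vehicle alone in 15 of 20, with a highest adjusted p of 0.14 and 0.0917, so each treatment on its own is less certain than the average. Without the library that stands apart the call with dDAVP was kept (log2 -1.52, edgeR adjusted p = 0.0445).

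**Figure D3:**
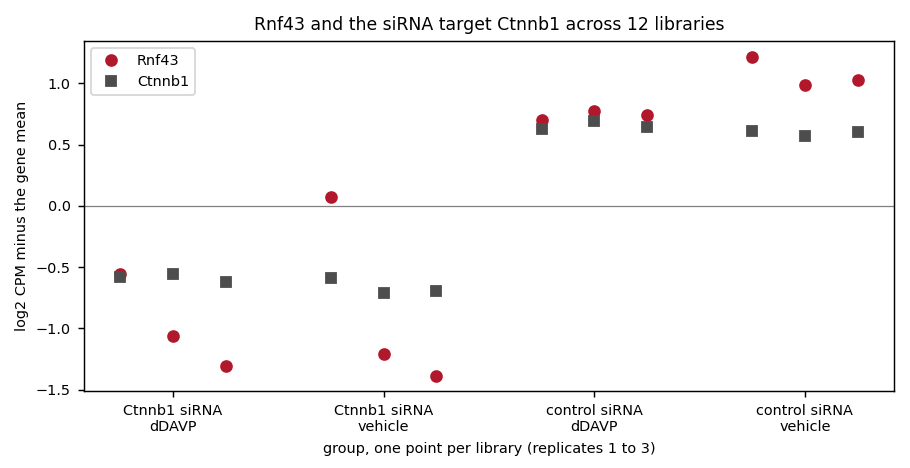
log2 CPM of Rnf43 and of the siRNA target Ctnnb1, each minus its mean over the 12 libraries, with 1 point per library. Both are lower in the 6 Ctnnb1-siRNA libraries than in the 6 control-siRNA libraries, and Rnf43 is the more spread of the 2.

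Promoter windows of the members are shown for the 2 genes that fell with the average of Ctnnb1 siRNA, Rnf43 and Lgr4, as they are the stretch where TCF/LEF proteins could bind near the start. They come from RefSeq for GRCm38.p6 and hold 250 bases before and 50 bases from the start of transcription, and the capital letter marks the start base. Rnf43 has 2 annotated starts, at chr11:87662837-87663136 and chr11:87699647-87699946, and Lgr4 has 1, at chr2:109917397-109917696, all on the plus strand.
Rnf43 start 1: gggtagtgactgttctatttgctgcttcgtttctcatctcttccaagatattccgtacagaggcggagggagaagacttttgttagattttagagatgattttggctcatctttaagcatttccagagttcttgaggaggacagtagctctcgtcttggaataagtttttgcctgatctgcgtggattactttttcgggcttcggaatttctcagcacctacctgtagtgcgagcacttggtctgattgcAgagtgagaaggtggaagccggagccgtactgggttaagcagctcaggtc
Rnf43 start 2: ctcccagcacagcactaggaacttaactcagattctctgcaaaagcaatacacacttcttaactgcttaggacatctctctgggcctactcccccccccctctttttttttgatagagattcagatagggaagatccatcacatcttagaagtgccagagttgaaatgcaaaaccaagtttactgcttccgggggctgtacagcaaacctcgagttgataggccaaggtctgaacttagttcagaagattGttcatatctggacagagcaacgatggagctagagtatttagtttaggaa
Lgr4 start: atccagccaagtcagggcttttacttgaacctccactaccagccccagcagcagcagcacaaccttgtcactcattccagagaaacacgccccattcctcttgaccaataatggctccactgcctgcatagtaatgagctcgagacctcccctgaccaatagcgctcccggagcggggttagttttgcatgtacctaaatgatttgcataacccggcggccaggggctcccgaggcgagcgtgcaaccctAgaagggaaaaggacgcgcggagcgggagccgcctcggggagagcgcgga

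The words CTTTGAA and CTTTGAT, and with them CTTTGTA as well as CTTTGTT, which are forms of the TCF/LEF recognition sequence, were searched on both strands, and a window counts once even where words overlap. None occurs in these 3 windows. Over the 12 windows of the 6 members listed there, 2 hold a word, against 16.9% of all 32851 windows. Tcf7l2 has CTTTGTT beginning 14 bases before its start number 2, and Lef1 has CTTTGTA on the opposite strand 147 bases before its start number 4. A match is only a description of the letters in the window, and known TCF/LEF sites often lie far from the start.

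The second ubiquitin ligase of the pair, Znrf3 (gene ID 407821, chromosome 11, 5276329 to 5444847), was the more abundant one in every library. It had 15.8, 14.5 and 22.1 CPM with Ctnnb1 siRNA and dDAVP, against 23.5, 20.2 and 22.1 CPM with control siRNA and dDAVP. With vehicle it had 17.1, 19.3 and 17.7 CPM with Ctnnb1 siRNA, against 18.8, 19.6 and 21.0 CPM with control siRNA. The groups overlapped in both treatments because replicate 3 of the Ctnnb1-siRNA dDAVP group, the library that stands apart, lay beside the control-siRNA libraries, and the 2 vehicle groups crossed at 1 value. The change was log2 -0.32 with dDAVP (95% interval -0.59 to -0.06, edgeR adjusted p = 0.323) and log2 -0.14 with vehicle (95% interval -0.40 to 0.13, edgeR adjusted p = 0.89), and neither was called. Without that library Znrf3 was called lower with dDAVP (log2 -0.53, edgeR adjusted p = 0.0125) and in the average (log2 -0.33, edgeR adjusted p = 0.00481). Counting this one, only 2 of 20 alternatives called Znrf3 with dDAVP and 2 of 19 in the average, so these calls are not firm.

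The balance of the 2 ligases differed between the siRNAs. Rnf43 made up 3.05% to 7.08% of the summed TPM of Rnf43 and Znrf3 with Ctnnb1 siRNA and dDAVP and 3.56% to 9.76% with Ctnnb1 siRNA and vehicle, against 10.98% to 13.0% and 14.2% to 17.8% with control siRNA. All Ctnnb1-siRNA libraries were thus below all control-siRNA libraries, while Znrf3 remained the main transcript of the pair throughout. These shares rest on the same Rnf43 reads as its fall, so they are not a separate result, and they were not tested.

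Lgr4 (gene ID 107515, chromosome 2, 109917647 to 110014257) was lower with Ctnnb1 siRNA by a small amount. It had 237, 229 and 234 CPM with Ctnnb1 siRNA and dDAVP, against 269, 262 and 277 CPM with control siRNA and dDAVP. With vehicle it had 256, 260 and 257 CPM with Ctnnb1 siRNA, against 271, 269 and 277 CPM with control siRNA. The groups did not overlap in either treatment. Averaged over both treatments the change was log2 -0.14, a 1.1-fold fall (SE 0.030, edgeR adjusted p = 0.0195). In single treatments it was not called, with log2 -0.21 (SE 0.042, edgeR adjusted p = 0.0528) with dDAVP and log2 -0.08 (SE 0.042, edgeR adjusted p = 0.691) with vehicle. Leaving out 1 of these libraries ended the call in the average: replicate 3 of the control-siRNA vehicle group (adjusted p = 0.0717), replicate 3 of the control-siRNA dDAVP group (0.0705), Ctnnb1-siRNA vehicle replicate 2 (0.0564) or replicate 3 (0.0606), over a range of 3.92e-07 to 0.0717 in 19 alternatives. With dDAVP alone, Lgr4 was called in 5 of 20 alternatives, among them the one without the library that stands apart (edgeR adjusted p = 0.0328).

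The 3 tested TCF/LEF genes were not called with Ctnnb1 siRNA. Tcf7l2 (gene ID 21416, chromosome 19, 55741797 to 55933659) averaged 34.7 ± 8.69 CPM with Ctnnb1 siRNA and dDAVP, against 39.8 ± 9.46 CPM with control siRNA and dDAVP. With vehicle it averaged 37.7 ± 3.67 CPM with Ctnnb1 siRNA, against 36.9 ± 3.59 CPM with control siRNA (SD, n = 3 each). The averaged change was log2 -0.08, with a 95% interval of -0.38 to 0.22, so that a fall of the size seen for Rnf43 lies outside it.

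Tcf7l1 (gene ID 21415, chromosome 6, 72626371 to 72789045) was 4.20, 4.21 and 4.49 CPM with Ctnnb1 siRNA and dDAVP, all below the 7.59, 4.50 and 5.35 CPM with control siRNA and dDAVP. With vehicle it was 5.85, 4.73 and 4.20 CPM with Ctnnb1 siRNA, against 3.88, 4.41 and 4.04 CPM with control siRNA. The values thus lay lower with dDAVP and overlapped with vehicle. The fitted changes were log2 -0.43 (edgeR adjusted p = 0.34) with dDAVP and log2 0.26 (edgeR adjusted p = 0.785) with vehicle, and neither was called. Their difference, log2 -0.70 with a 95% interval of -1.22 to -0.17, was not called over all genes (edgeR adjusted p = 0.918). The span of Tcf7l1 shares 263 bases with the pseudogene LOC105244842, of unknown strand here, which averaged 104.5 reads. Tcf7l1 itself had 148 to 298 reads per library, and whether the reads of both were told apart is not known. Tcf7 (gene ID 21414, chromosome 11, 52246527 to 52283383) averaged 0.508 ± 0.194 CPM with Ctnnb1 siRNA and dDAVP and 0.796 ± 0.242 CPM with control siRNA and dDAVP. With vehicle it averaged 0.709 ± 0.241 CPM with Ctnnb1 siRNA and 0.989 ± 0.341 CPM with control siRNA (SD, n = 3 each). The averaged change of Tcf7, log2 -0.57 (95% interval -1.12 to -0.02, edgeR adjusted p = 0.364), was not called.

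Ccnd1 (gene ID 12443, chromosome 7, 144929931 to 144939831) encodes a D-type cyclin that drives entry into the cell cycle and is often named as a Wnt target. It had 71.3, 68.7 and 42.2 CPM with Ctnnb1 siRNA and dDAVP, against 51.3, 62.3 and 58.1 CPM with control siRNA and dDAVP. With vehicle it had 75.3, 79.1 and 75.3 CPM with Ctnnb1 siRNA, against 62.0, 61.9 and 64.8 CPM with control siRNA. In vehicle every Ctnnb1-siRNA library was above every control-siRNA library, and in dDAVP the library that stands apart was the lowest of all 12. The changes were log2 0.09 with dDAVP (edgeR adjusted p = 0.871) and log2 0.28 with vehicle (edgeR adjusted p = 0.715) and were not called. Without that library Ccnd1 was called higher, by log2 0.29 with dDAVP (edgeR adjusted p = 0.0484), log2 0.28 with vehicle (0.0312) and log2 0.29 in the average (0.00199). The vehicle groups do not hold that library, and there only the shared spread changed, with an SE of 0.152 with it and 0.059 without. A fit of the vehicle groups alone also called Ccnd1 higher (edgeR adjusted p = 0.00216). Ccnd1 was called in 2 of 20 alternatives with vehicle, in 1 of 20 with dDAVP and in 2 of 19 in the average. Ccnd1 shares 818 bases with LTO1 on the opposite strand, which averaged 733 reads per library.

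Myc (gene ID 17869, chromosome 15, 61985341 to 61990361), a transcription factor of growth and ribosome production, was not called with Ctnnb1 siRNA. It averaged 35.8 ± 1.05 CPM with Ctnnb1 siRNA and dDAVP and 40.0 ± 4.18 CPM with control siRNA and dDAVP. With vehicle it averaged 29.9 ± 1.43 CPM with Ctnnb1 siRNA and 29.3 ± 2.98 CPM with control siRNA (SD, n = 3 each). The averaged change was log2 -0.06 (95% interval -0.19 to 0.06), so a fall of the size seen for Rnf43 lies outside the interval.

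**Figure D4:**
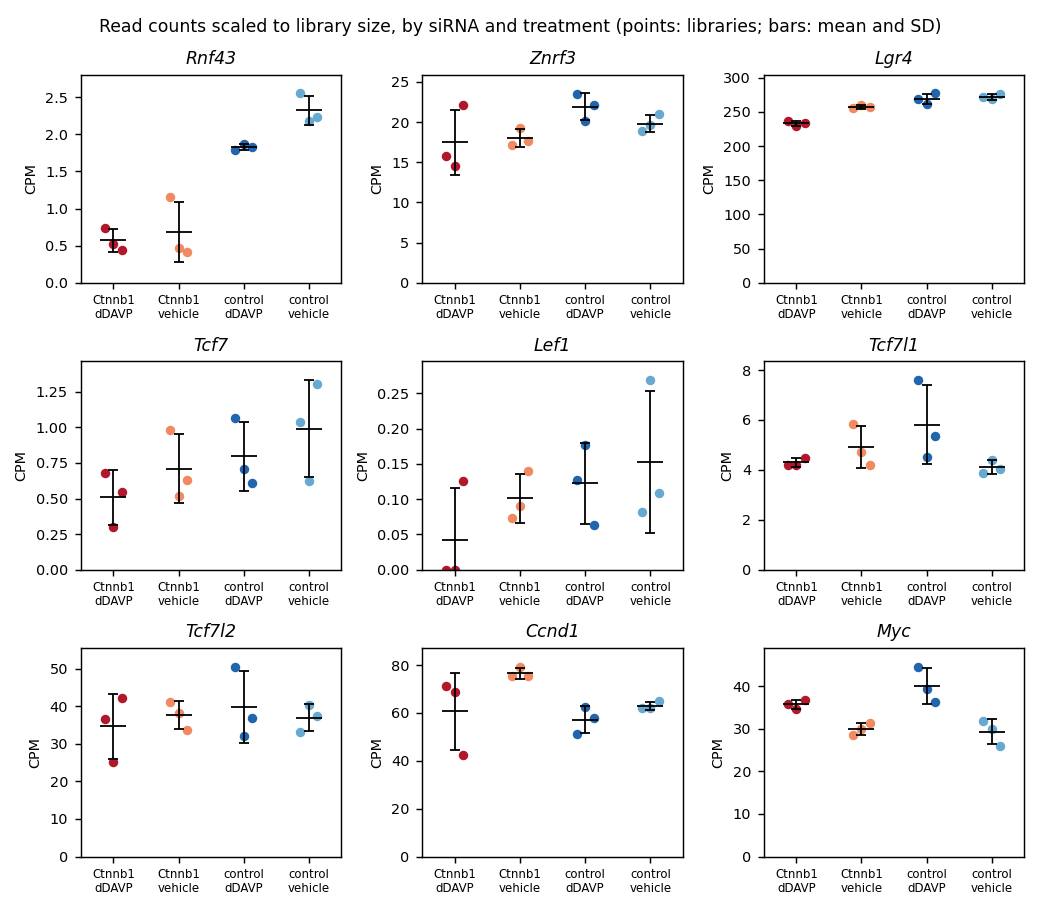
CPM of each member in every library by siRNA and treatment, with the mean and SD of each group of 3. Rnf43 separates the Ctnnb1-siRNA from the control-siRNA libraries, Lgr4 does so by a small margin, Myc is higher with dDAVP, and the lowest Ccnd1 point is Ctnnb1-siRNA dDAVP replicate 3.

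Counted over the 8 tested members, 1 was lower and 0 higher with Ctnnb1 siRNA and dDAVP, where 0.145% of all tested genes were lower and 0.121% higher. With vehicle 1 was lower and 0 higher, against 0.224% and 0.206% of all genes. In the average 2 were lower and 0 higher, against 0.909% and 0.939%. The groups of 3 values did not overlap for 3 of the 8 members with dDAVP, against 13.3% of all genes, and for 3 with vehicle, against 18.2%. The median change of the 8 members was log2 -0.27 with dDAVP, -0.02 with vehicle and -0.11 in the average, where the median of all genes was within 0.003 of 0. With 8 members these counts turn on single genes. The members were chosen with earlier results of these data known, so the counts do not test them against all genes.

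The second comparison asked which members answered to dDAVP. Myc rose with it. In control-siRNA cells Myc had 44.5, 39.3 and 36.2 CPM with dDAVP, against 31.9, 30.03 and 26.04 CPM with vehicle. In Ctnnb1-siRNA cells it had 35.8, 34.7 and 36.8 CPM with dDAVP, against 28.5, 29.9 and 31.4 CPM with vehicle. Every dDAVP library was above every vehicle library with either siRNA. The rise was 1.36-fold in control-siRNA cells (log2 0.45, SE 0.084, edgeR adjusted p = 0.00674) and 1.28-fold in the average of both siRNAs (log2 0.35, SE 0.059, edgeR adjusted p = 0.00134).

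In Ctnnb1-siRNA cells the change of Myc was 1.2-fold (log2 0.26, 95% interval 0.08 to 0.44) and was not called (edgeR adjusted p = 0.141, and 0.206 without the library that stands apart). The difference between the 2 responses, log2 -0.19 with a 95% interval of -0.44 to 0.06, was not called either (edgeR adjusted p = 0.918), so the 2 siRNAs are not shown to differ. The call in control-siRNA cells was kept in 19 of 20 alternatives and lost on the log2 of TPM plus 1 (limma adjusted p = 0.0552), and the call in the average was kept in all 19.

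No other member was called with dDAVP. Rnf43 was lower with dDAVP in control-siRNA cells without overlap, at 1.78 to 1.87 CPM with dDAVP against 2.18 to 2.55 CPM with vehicle, but the change of log2 -0.35 was not called (edgeR adjusted p = 0.627). Tcf7l1 was 4.50 to 7.59 CPM with dDAVP, above the 3.88 to 4.41 CPM with vehicle in the same cells, and its change of log2 0.50 was not called (edgeR adjusted p = 0.17). In Ctnnb1-siRNA cells Lgr4 was 229 to 237 CPM with dDAVP, below the 256 to 260 CPM with vehicle, with log2 -0.14 and an edgeR adjusted p of 0.0975. Ccnd1 was 42.2 to 71.3 CPM with dDAVP in those cells, below the 75.3 to 79.1 CPM with vehicle, with log2 -0.33 and an edgeR adjusted p of 0.364. Without the library that stands apart the change was log2 -0.13 (edgeR adjusted p = 0.365).

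Of the 8 tested members, 1 was higher and 0 lower with dDAVP in control-siRNA cells, where 1.91% of all tested genes were higher and 0.915% lower. In Ctnnb1-siRNA cells 0 were called, where 2.08% of all genes were higher and 0.697% lower, with 3 of 8 at an unadjusted p under 0.05, against 13.7% of all genes. DESeq2 called 1 member, which was Lgr4, among 737 genes. In the average 1 was higher and 0 lower, against 4.33% and 2.54%. The groups did not overlap for 3 of 8 members with either siRNA, against 22.2% of all genes with control siRNA and 17.8% with Ctnnb1 siRNA. As the members were chosen with earlier results known, these counts too do not test them against all genes. For the interaction of siRNA and dDAVP edgeR called 0 of 16508 genes (0% called), with 829 genes and 2 members (Tcf7l1 and Lgr4) at an unadjusted p under 0.05, and DESeq2 called 1 gene, which was no member.

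**Figure D5:**
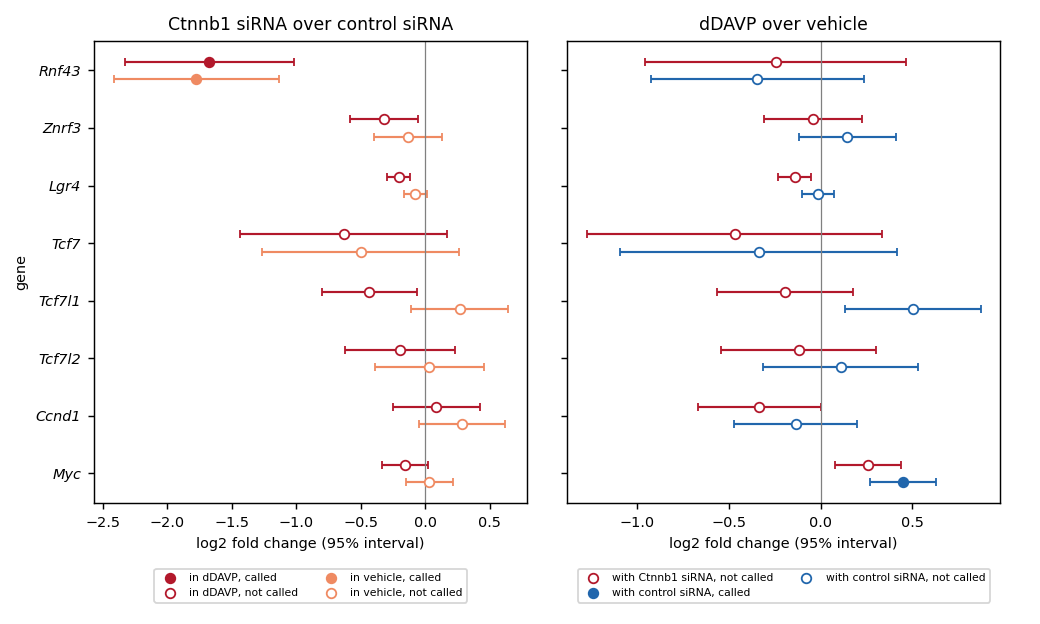
Fitted log2 fold changes of the 8 tested members with 95% intervals, for Ctnnb1 siRNA over control siRNA (left) and dDAVP over vehicle (right). Filled points are called at an adjusted p under 0.05, which applies to Rnf43 in both treatments on the left and to Myc with control siRNA on the right.

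The other genes of the pathway were read from lists by role, which were chosen with earlier results of these data known. Among Wnt ligands and R-spondins, 13 of 23 listed genes were in the table and 8 were tested. The most abundant ligands were Wnt7b at 173 TPM, Wnt10a at 37.3 TPM and Wnt7a at 21.3 TPM. With Ctnnb1 siRNA 0 of the 8 were called, and with dDAVP in the average of both siRNAs 2 were lower and 0 higher, Wnt7a (log2 -0.31, edgeR adjusted p = 0.0155) and Wnt9a (log2 -0.23, 0.0441), where 2.54% of all tested genes were lower and 4.33% higher. The median of the 8 with dDAVP was log2 -0.20, while that of all genes was near 0. The call of Wnt9a was kept in 5 of 19 alternatives and that of Wnt7a in 16.

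Among Wnt receptors and co-receptors 13 of 18 listed genes were tested, led by Fzd6 at 81.7 TPM, Ptk7 at 64.0 TPM and Ryk at 62.3 TPM. Fzd4, a Frizzled receptor, rose with dDAVP. In Ctnnb1-siRNA cells Fzd4 had 11.9, 10.9 and 14.3 CPM with dDAVP, against 5.80, 7.06 and 7.13 CPM with vehicle. In control-siRNA cells it had 13.95, 11.5 and 12.8 CPM with dDAVP, against 7.61, 8.41 and 6.42 CPM with vehicle. The groups did not overlap with either siRNA, and the call was kept in all 19 alternatives of the average (log2 0.83, SE 0.092, edgeR adjusted p = 2.49e-05). Ptk7, a co-receptor, was lower with dDAVP in the average (log2 -0.18, edgeR adjusted p = 0.0215; kept in 14 of 19). With Ctnnb1 siRNA 1 of the 13 was lower in the average, Lgr6, a relative of Lgr4 that also binds R-spondins (log2 -0.52, edgeR adjusted p = 0.0373; kept in 9 of 19), where 0.909% of all tested genes were lower. The median of the 13 was log2 -0.11 and 0 of them had a positive change, against 49.7% of all genes. In single treatments 1 of the 13 was positive with dDAVP and 2 with vehicle. The destruction complex and co-factor lists below also had few positive changes in the average.

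Secreted and surface inhibitors of Wnt were scarce: 7 of 18 were in the table and 3 were tested, of which Kremen1 was the highest at 19.4 TPM. Trabd2b, a surface protease that cuts Wnt ligands, was lower with dDAVP in the average (log2 -1.07, edgeR adjusted p = 0.0244; kept in 12 of 18) at a mean of only 0.154 TPM. Of the 16 genes of the destruction complex and Dishevelled, all tested, and of the 18 tested co-factors and co-repressors of beta-catenin and TCF, 0 were called in any of the 7 comparisons by edgeR. The first list had a median of log2 -0.07 and the second of log2 -0.09 with Ctnnb1 siRNA in the average. Positive changes there numbered 2 of 16 and 4 of 18. Of all tested genes, 0.939% were higher and 0.909% lower in that average. With dDAVP in the average 4.33% were higher and 2.54% lower. A count of 0 in lists of this size is not set apart from these shares.

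Of 20 tested genes that are also known as Wnt targets elsewhere, 4 were higher and 2 lower with Ctnnb1 siRNA in the average, with a median of log2 -0.04, where 0.939% of all tested genes were higher and 0.909% lower. Jun, a subunit of the AP-1 transcription factor, was the one called lower in both treatments. Jun had 60.5, 62.1 and 59.4 CPM with Ctnnb1 siRNA and dDAVP, against 93.4, 97.2 and 89.0 CPM with control siRNA and dDAVP. With vehicle it had 71.9, 75.0 and 65.6 CPM with Ctnnb1 siRNA, against 107, 129 and 112 CPM with control siRNA. Every Ctnnb1-siRNA library was below every control-siRNA library, and the averaged fall of log2 -0.66 (SE 0.048, edgeR adjusted p = 3.39e-06) was called in all 19 alternatives. Sox4 was the other lower gene (log2 -0.23, edgeR adjusted p = 0.0297; kept in 9 of 19). The higher ones were Plaur, the urokinase receptor (log2 0.47, edgeR adjusted p = 0.0013), Vegfa, an angiogenic growth factor (log2 0.29, 0.0045), the growth factor receptor gene Met (log2 0.20, 0.00348) and Id2, an inhibitor of differentiation factors (log2 0.24, 0.00807). Plaur was called in all 19 alternatives and the other 3 in 18 each.

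With dDAVP 1 of the same 20 genes was higher and 5 were lower in the average, with a median of log2 0.04, where 4.33% of all tested genes were higher and 2.54% lower. Among the lower ones were Fgf18, a fibroblast growth factor (log2 -0.92, edgeR adjusted p = 0.000174), the Notch ligand gene Jag1 (log2 -0.38, 0.000175), Sox4 (log2 -0.30, 0.00172) and Jun (log2 -0.27, 0.00232). The higher one was Ephb3, an ephrin receptor (log2 0.24, 0.00362). Fgf18 and Jag1 were also called lower with each siRNA by itself.

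The genes around Ccnd1 and Myc were measured as well. Of 19 tested partners of D-type cyclins and regulators of G1, led by Cdk4 at 711 TPM, 0 were called by edgeR in any of the 7 comparisons, and their median was near 0 with Ctnnb1 siRNA and log2 0.02 with dDAVP in the averages. In these averages 0.939% of all tested genes were higher and 0.909% lower with Ctnnb1 siRNA, and 4.33% and 2.54% with dDAVP. A count of 0 among 19 is not set apart from these shares, which also stand beside the Myc lists below. Of 12 tested relatives and partners of Myc, Mycl was lower with Ctnnb1 siRNA in the average (log2 -0.37, edgeR adjusted p = 0.0246; kept in 11 of 19), while with dDAVP Mlxip was higher (log2 0.43, 0.0338; kept in 10 of 19) and Mycn lower (log2 -0.27, 0.0117; kept in all 19). Their median was near 0 with Ctnnb1 siRNA and log2 -0.05 with dDAVP. Of 26 genes known as Myc targets, 4 were higher and 0 lower with dDAVP in the average: Ddx21 (log2 0.24, edgeR adjusted p = 0.00216; kept in 18 of 19), Ldha (log2 0.21, 0.00952; kept in all 19), Hspd1 (log2 0.16, 0.02; kept in 15 of 19) and Rrp12 (log2 0.15, 0.0226; kept in 14 of 19). Of all tested genes 4.33% were higher and 2.54% lower. The median of the 26 with dDAVP in that average was log2 0.10. There 24 changes were positive, called or not, against 48.4% of all genes. In control-siRNA cells, where the rise of Myc was called, 0 of the 26 were called (1.91% of all genes higher). Their median there was log2 0.08, with 20 positive. In Ctnnb1-siRNA cells, where the change of Myc was not called, 1 was higher, Ddx21 (2.08% of all genes higher). Their median there was log2 0.11, with 23 positive. For Ctnnb1 siRNA against control siRNA in the average 0 of 26 were called and the median was near 0.

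The genes whose pattern over the 12 libraries was most like that of a called member were found by the root mean square difference of log2 CPM, each gene centred on its own mean, among 11118 genes with a mean of at least 1 CPM. For Rnf43 they were the siRNA target Ctnnb1, at 0.43, and Eddm3b, at 0.57, against a median of 0.95 over all genes compared. For Lgr4 they were Tgif2 and Usp46, at 0.04 each, against a median of 0.14. For Myc they were Sh3d21 and Ly6e, at 0.08 and 0.09, against a median of 0.23. These are descriptions over libraries that share groups, and genes with small changes lie close to each other by this measure.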

How the data were processed

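Per the labels' protocols, total RNA depleted of ribosomal RNA was made into strand-specific libraries. Per the submitters' processing notes, FastQC, Trimmomatic, HISAT2, StringTie and DESeq2 were used with GRCm38 (mm10). How reads were counted is not given in the sources used here. The deposited table holds unnormalised read counts and TPM, 1 column of each per library, per the file headers, and TPM was used for levels between genes. Counts were fitted in R 4.3.3 with edgeR 4.0.16: filterByExpr left 16508 genes (99.968% of reads), TMM scaling, a robust quasi-likelihood fit with 1 coefficient per group on all 12 libraries, and p-values adjusted by Benjamini-Hochberg over the whole set of tested genes, called at an adjusted p under 0.05. The common biological coefficient of variation was 8.26%. The fit was checked on simulated counts. Averages weight both contrasts equally. A member under 1 TPM on average is low, and one that fails the filter is too low to measure. All members and Ctnnb1 were named, with the 3 highest genes and called genes of each list, some of which are not reported here; the nearest 2 genes by pattern were added for called members. Members and lists were chosen with earlier results of these data known. Alternatives were DESeq2 1.42.0, its size factors, voom with sample weights and log2(TPM + 1) in limma 3.58.1, other filters, fits of the compared groups, a replicate block and leaving out each library.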

Additional observations from a re-analysis of the deposited data

How the results depend on the processing

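No called result of a member or list gene changed direction under any alternative run. Counts of called genes moved with the tool and with single libraries. With Ctnnb1 siRNA and dDAVP 44 genes were called, and 259 with DESeq2, 301 with voom, 21 on log2 TPM and 8 in a fit of the compared groups; called members numbered 1, and 2, 3, 0 and 0 in the same order, with 2 under the filter at 1 CPM. With Ctnnb1 siRNA and vehicle 71 genes were called, and 169 with DESeq2, 253 with voom and 255 in a fit of the compared groups, where 2 members (1 otherwise) were called. In the average 305 genes were called, and 586 with DESeq2 and 924 with voom, which called 4 members in place of 2. With dDAVP in Ctnnb1-siRNA cells 459 genes were called, and 737 with DESeq2, 210 on log2 TPM and 275 in a fit of the compared groups, and the 0 members became 1 with DESeq2 and 1 with voom. In control-siRNA cells 467 were called, and 744 with DESeq2 and 1301 with voom, and the 1 member became 0 on log2 TPM. In the average 1133 were called, and 1843 with voom, and the 1 member became 2 with DESeq2. For the interaction DESeq2 called 1 gene. The cause of these moves was not tested.

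Leaving out each library in turn gave 5 to 216 genes and 0 to 4 members with Ctnnb1 siRNA and dDAVP, 18 to 181 and 0 to 2 with vehicle, and 172 to 606 and 1 to 4 in the average. With dDAVP it gave 212 to 492 genes and 0 members in Ctnnb1-siRNA cells, 240 to 843 and 1 in control-siRNA cells, and 807 to 1279 and 1 in the average, and for the interaction 0 and 0. The highest counts with Ctnnb1 siRNA came without replicate 3 of the Ctnnb1-siRNA dDAVP group, the 5 genes with dDAVP came without replicate 1 of control siRNA with dDAVP, the 18 with vehicle without replicate 3 of Ctnnb1 siRNA with vehicle, and the 172 in the average without replicate 3 of either vehicle group. The call of Rnf43 with dDAVP was lost on log2 TPM (adjusted p = 0.0511), in the fit of the compared groups (0.066), and when 1 of these was left out: replicate 1, 2 or 3 of control siRNA with vehicle (0.0536, 0.062, 0.067), replicate 1, 2 or 3 of control siRNA with dDAVP (0.0964, 0.053, 0.14) and replicate 1 or 2 of Ctnnb1 siRNA with dDAVP (0.0506, 0.11). The call with vehicle was lost when replicate 1, 2 or 3 of control siRNA with vehicle (0.0643, 0.0641, 0.0741) or replicate 2 or 3 of Ctnnb1 siRNA with vehicle (0.0917, 0.09) was left out. On log2 TPM 45 genes were higher and 224 lower in the average of Ctnnb1 siRNA, against 155 and 150 on TMM-scaled counts, with a median of all genes that shifts by less than 0.1.

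No pairing of the libraries by replicate number was seen. None of 18 correlations between deviations of same-numbered libraries was above 0.1 (-0.09 to 0.07), and 3 of 12 libraries correlated best with their own number. With 3 libraries per group these correlations cannot exclude that same-numbered libraries were handled together. A replicate block gave 38, 53 and 263 genes with Ctnnb1 siRNA (dDAVP, vehicle, average), 415, 408 and 1064 with dDAVP (Ctnnb1 siRNA, control siRNA, average) and the same number of called members as without it in each comparison. Depth limits Lef1, Tcf7 and Rnf43 most, with at most 9, 60 and 125 reads in a library.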
